A study of Mus musculus with 10 samples.

Results

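The 40 mitosis genes described here encode proteins that carry a cell through division, from cyclins and kinases to checkpoint, kinetochore, spindle, cytokinesis and exit factors. They were a list of gene symbols, each read from a probe set that the array annotation gives exactly 1 symbol, and where a gene had several such probe sets the one with the highest mean over the 10 arrays was used. All 40 were found among 19556 genes with such a probe set, and all 40 passed the filter on low signals that left 17170 genes for testing, so no member was lost to it. Of the members 19 had 1 probe set and 21 had more, 78 in all.

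The 10 arrays measured expression in human breast cancer cells, estrogen receptor positive, that grew in female nu/nu mice aged 20 weeks, a strain that lacks mature T cells. All mice received estrogen pellets; the groups labelled E kept them, and in the groups labelled EWD (estrogen withdrawal) the pellets were taken out for 1 week. The axillary lymph node metastases of mice 6, 11 and 14 formed the E group of that site and those of mice 9, 10 and 19 its EWD group. Mice 11 and 14 (E) and mice 10 and 19 (EWD) gave the primary mammary gland tumors. Laser capture, in which selected cells are lifted from a frozen section, supplied the RNA, and PCR amplified it. No group was without an estrogen pellet throughout, the labels used here name no cell line, and they give mouse as the organism, which is the host, while the probe sets are human. Mice 10, 11, 14 and 19 gave both sites, so the arrays of the 2 sites are not from separate animals. Where p-values are given they measure only the spread between these arrays, whose number limits the precision.

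Mitosis begins when CDK1, bound to A and B cyclins and freed of its inhibitory phosphates by CDC25 phosphatases, phosphorylates its many targets. Chromosomes then attach through kinetochores to a spindle built by motor and bundling proteins, the spindle checkpoint holds the cell until attachment is complete, and the anaphase-promoting complex with CDC20 destroys securin and cyclin B. Most of these transcripts are made mainly late in the cell cycle, so that their summed level in a tumor follows the share of dividing cells, and in estrogen receptor positive breast cancer cells estrogen is a known stimulus of division. In bulk RNA of captured cells, fewer dividing cells and less RNA per dividing cell cannot be told apart.

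The arrays differed in ways that bear on the results below. Values were the authors' deposited log2 signal. The array medians lay between 2.70 and 2.83, but the 99th percentile of the signals was 9.44 and 10.04 on the primary tumor arrays of mice 11 and 14 (E), against 11.39 to 11.67 elsewhere. Counts and medians are therefore given as deposited and after quantile normalization, which gives all arrays 1 distribution; array values of single genes are as deposited. The mean of 18 hybridization control probe sets ran from 12.04 to 12.47 on 4 arrays, the lymph nodes of mice 11 (E) and 19 (EWD) and the primary tumors of mice 10 and 19, against 9.47 to 10.59 on the remaining 6. The GAPDH 3′ minus 5′ difference was 3.15 to 4.62 on 9 arrays and 5.87 on the withdrawn primary tumor of mouse 19. All 10 luminal epithelial markers exceeded a log2 signal of 4 on at least 1 array, and their mean was 8.45 and 8.74 in the estrogen-treated primary tumors against 9.62 to 10.88 on the other arrays. Of 10 lymphocyte markers on the array 1 exceeded 4, CD79A, while PTPRC, the pan-leukocyte antigen CD45, stayed between 2.00 and 2.54. A signal of 4 was also exceeded by 3 of 7 myeloid markers (AIF1, CD14 and ITGAM) and 5 of 11 stroma and vessel markers (COL1A1, COL3A1, ACTA2, PECAM1 and CDH5), led by COL1A1 at up to 7.54 and ACTA2 at up to 8.92. The list means per array were 2.90 to 3.20 for lymphocyte, 2.60 to 3.42 for myeloid and 3.45 to 4.01 for stroma and vessel markers. The part of these array and marker differences in the results was not tested.

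Most of the 40 genes moved together from array to array as deposited, and fewer did after quantile normalization. With estrogen in the lymph node, the median log2 signal of the 40 genes was 8.47, 6.41 and 8.90 (mice 6, 11 and 14). It was 8.19, 8.39 and 7.51 after withdrawal, in the order of mice 9, 10 and 19. In primary tumors it was 6.65 and 6.58 with the pellet (mice 11 and 14), and 8.51 and 6.87 after its removal (mice 10 and 19). The withdrawn lymph nodes thus lay within the range of the estrogen-treated ones, in which mouse 11 stood far below the other mice, and the 2 withdrawn primary tumors lay well apart. After quantile normalization the estrogen-treated primary tumors stood at 7.33 and 7.27, above the lymph node of mouse 11 at 6.68 and the withdrawn primary tumor of mouse 19 at 6.75.

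**Figure D1:**
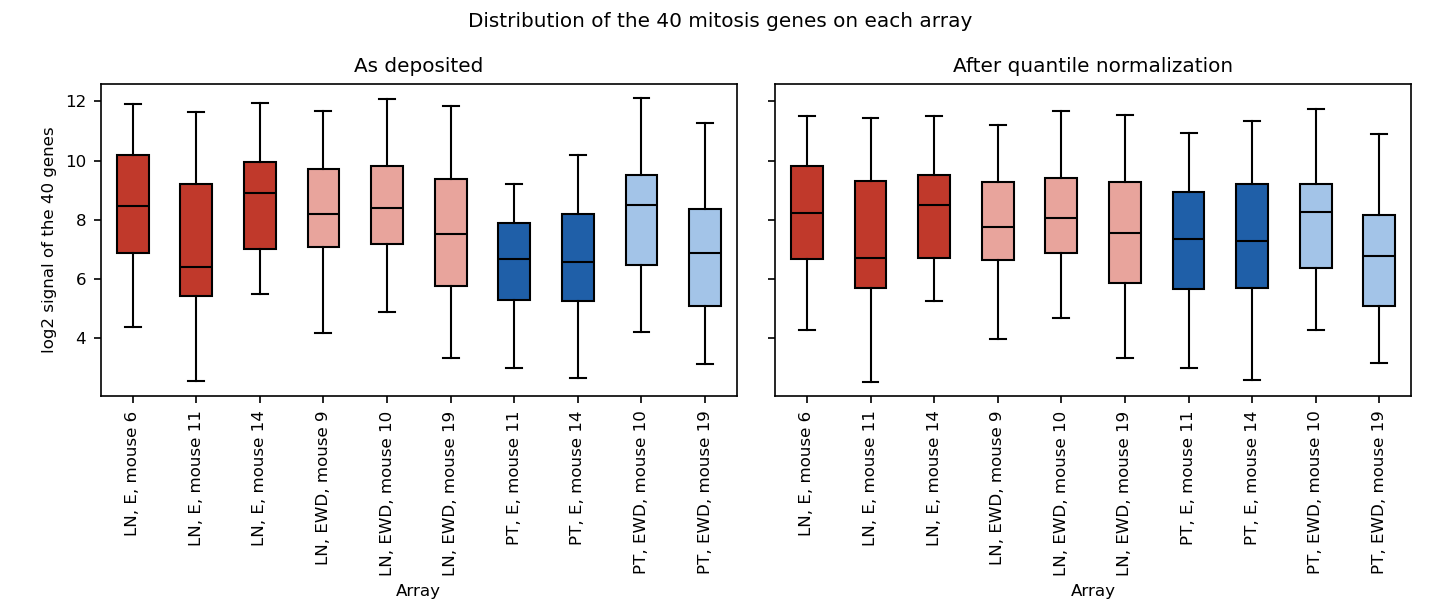
Box plots of the log2 signal of the 40 mitosis genes on each array, as deposited (left) and after quantile normalization (right); the line is the median, the box the quartiles and the whiskers the lowest and highest gene. LN is lymph node, PT primary tumor, E estrogen and EWD withdrawal. As deposited the medians ran from 6.41 (lymph node, mouse 11) to 8.90 (lymph node, mouse 14).

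The spread within groups ran through nearly the whole set in estrogen-treated lymph nodes and withdrawn primary tumors, but less so in the other groups. Among withdrawn lymph nodes mouse 19 was lowest for 30 of the 40 genes (25 after quantile normalization). In estrogen-treated primary tumors mouse 11 lay above mouse 14 for 20 genes (22 after quantile normalization). The lymph node array of mouse 11 was the lowest of the 3 estrogen-treated lymph nodes for 39 of the 40 genes as deposited and for 36 after quantile normalization. The exception as deposited was CDC20, the activator of the anaphase-promoting complex, which was highest there at 11.65. After quantile normalization CCNB2, PLK1 and TPX2 were exceptions too. The lymph node of mouse 14 was the highest of all 6 lymph nodes for 26 genes (24 after quantile normalization). In withdrawn primary tumors mouse 10 lay above mouse 19 for 38 genes on both scales, the exceptions being the cyclin CCNB1 and the checkpoint kinase TTK. The 2 deviating arrays, lymph node of mouse 11 and primary tumor of mouse 19, both belong to the 4 with high hybridization controls, as does the primary tumor of mouse 10, in which the genes were high.

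**Figure D2:**
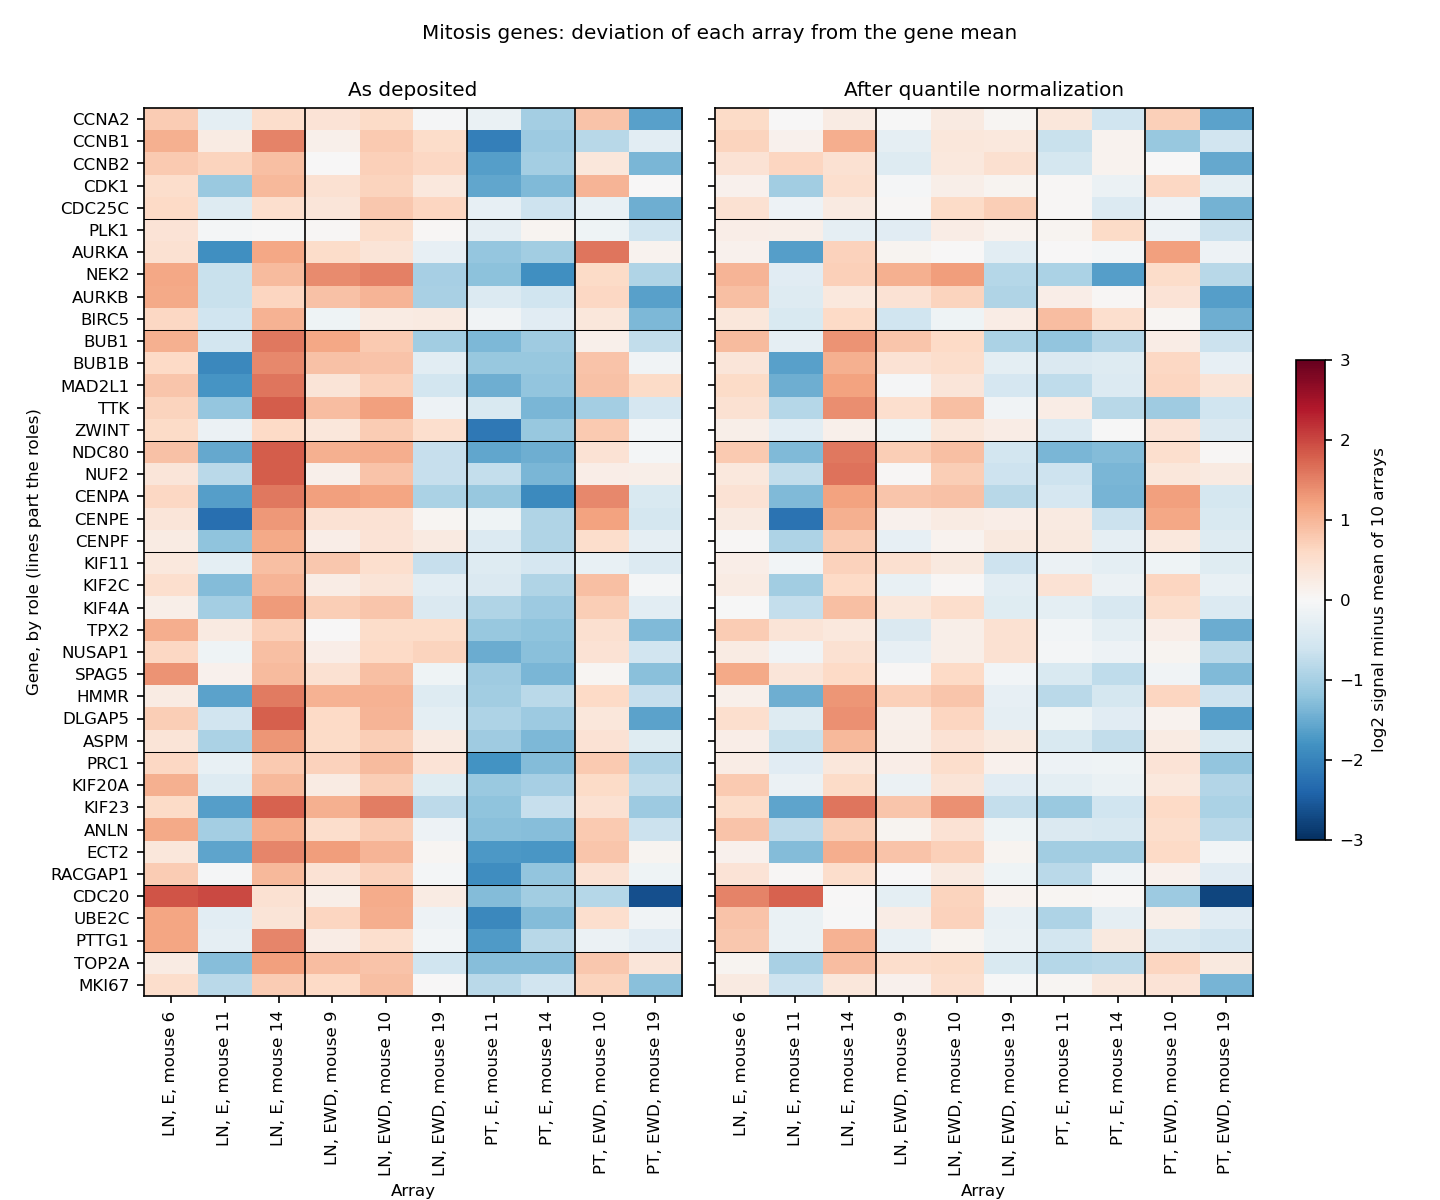
Heat map of the 40 mitosis genes (rows, parted by role) on the 10 arrays (columns), as deposited and after quantile normalization; colour is the log2 signal minus the gene's mean over the 10 arrays, red above and blue below it. The lymph node of mouse 11 is the lowest of its group for 39 genes as deposited, and both estrogen-treated primary tumors are paler after quantile normalization.

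The likeness of each gene to the rest was described by Pearson's r between its 10 values and the mean of the other 39 genes. It ran from 0.438 for CDC20 to 0.983 for ANLN, the actin-binding scaffold of the cleavage furrow, with a median of 0.876. After quantile normalization it ran from −0.017 for the kinase PLK1 to 0.967 for ANLN, with a median of 0.735, and CDC20 stood at 0.231. The coefficient exceeded 0.8 for 30 members as deposited and for 12 after quantile normalization. These coefficients describe 10 arrays that share groups, mice and signal range, and none were computed for genes outside the 40. The genes just above CDC20 and PLK1 as deposited were CDC25C (0.697), BIRC5 (0.711), CENPE (0.742) and both B cyclins (0.744 each).

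Estrogen against withdrawal in lymph node metastases asks whether division genes in the metastases depended on the pellet. No member was called in limma's test at an adjusted p below 0.05 over all 17170 genes, and none had an unadjusted p below 0.05, against 1002 of all genes (5.84%), of which 0% were called. The median difference of the members, estrogen minus withdrawal, was −0.10 on the log2 scale, where all genes had −0.02. Of 40 differences 17 were positive, as were 47.8% of all genes. After quantile normalization, where again 0% of all genes were called, the median was 0.01 and 20 were positive (52.6% of all genes). In no member, on either scale, did the 3 estrogen arrays lie entirely above or below the 3 withdrawn arrays, as they did in 9.93% of all genes as deposited and 11.1% after quantile normalization. The smallest adjusted p among the members was 0.927 (0.847 after quantile normalization). The intervals were wide: the distance from the estimate to either 95% bound ran from 0.56 (PLK1) to 2.11 (CENPA), with a median of 1.28 log2 units over the members.

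MKI67, the perichromosomal protein Ki-67 that pathologists stain to count dividing tumor cells, illustrates this. Its signal was 8.66, 7.33 and 8.91 with the pellet (mice 6, 11 and 14) and 8.73, 9.03 and 8.15 after its removal (mice 9, 10 and 19). In primary tumors it was 7.33 and 7.57 with the pellet (mice 11 and 14) and 8.81 and 6.87 after its removal (mice 10 and 19). With this probe set the groups overlapped at both sites. In the lymph node the difference was −0.33 ± 0.57 (SE, 95% interval −1.62 to 0.95), and its 3 other probe sets gave 0.77, 0.62 and 0.12. In primary tumors it was −0.40 ± 0.69 as deposited and 0.67 ± 0.56 after quantile normalization. There the other probe sets gave −1.28, −0.08 and 0.23 as deposited, in the same order, the first without overlap.

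The members at the upper end in the lymph node were CDC20 (0.94 ± 0.56), the securin PTTG1 (0.59 ± 0.46), which blocks separase until anaphase, and CCNB1 (0.44 ± 0.39). At the lower end were ECT2 (−0.71 ± 0.69), an exchange factor that acts at the cleavage furrow, CDC25C (−0.36 ± 0.38) and CDK1 (−0.34 ± 0.51). None of these 6 passed the test. The members' median difference was 0.53 with the mouse 11 lymph node left out and −0.38 with that of mouse 14 left out, with 0 members called in both cases.

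**Figure D3:**
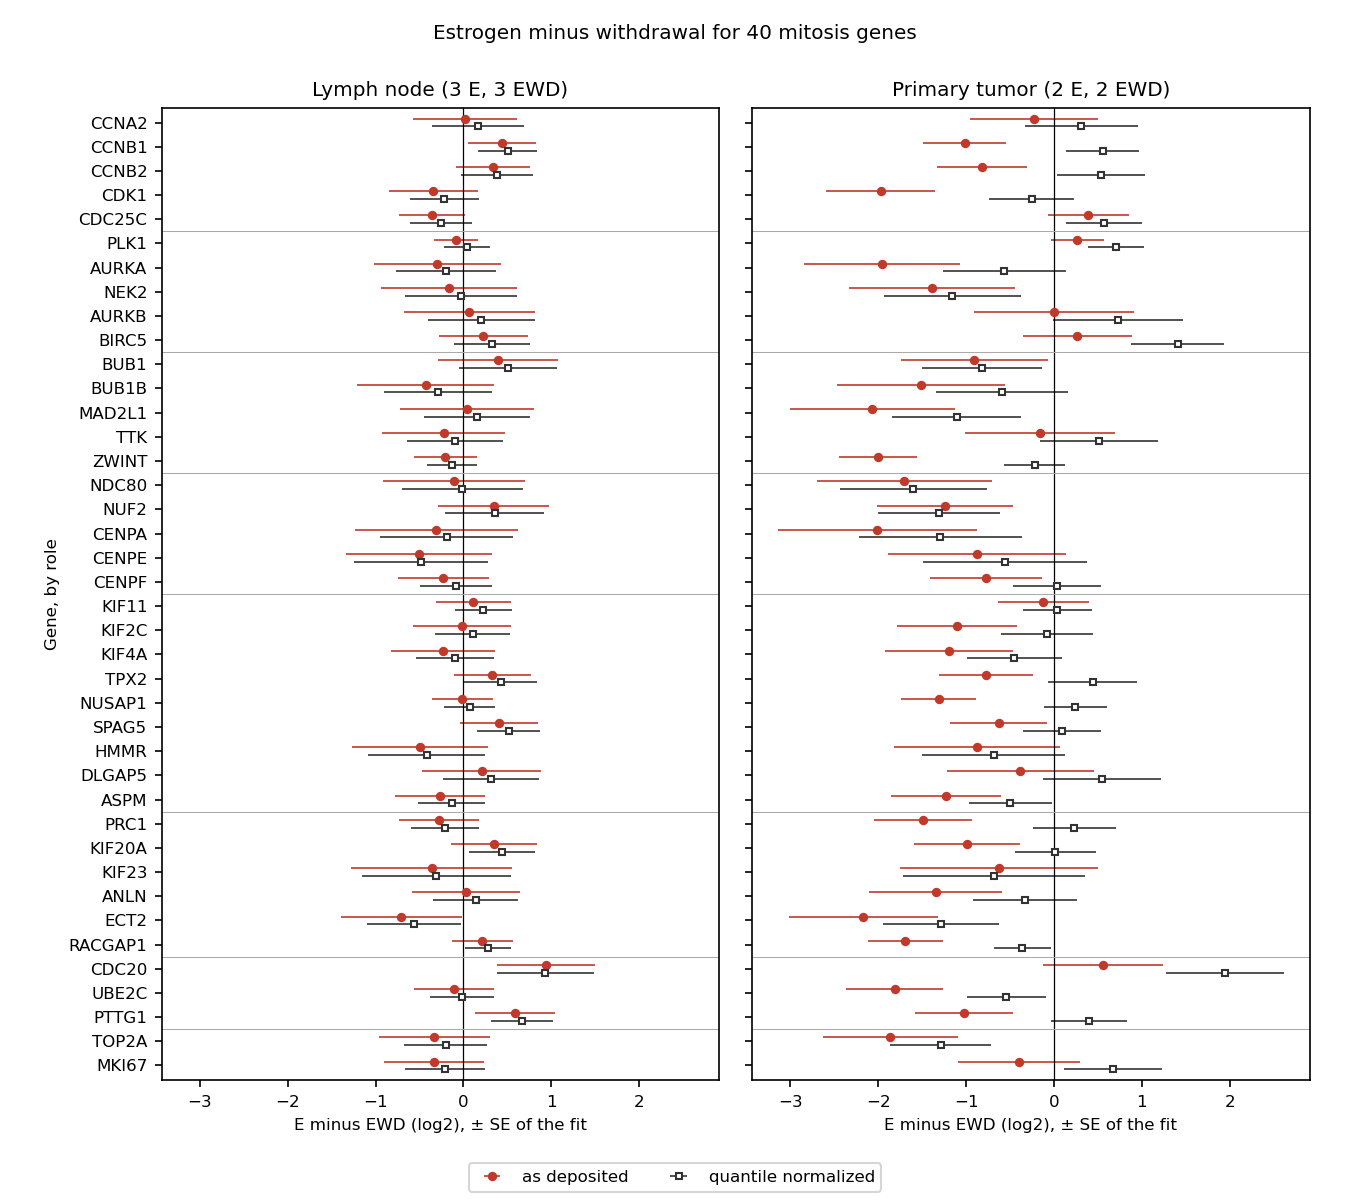
Estrogen minus withdrawal (log2, x axis) for each of the 40 genes (y axis, by role) in lymph nodes and in primary tumors, as deposited (filled) and after quantile normalization (open), with the standard error of the limma fit as bars. In lymph nodes the points lie between −0.71 and 0.94 as deposited; in primary tumors 36 of 40 are below 0 as deposited and 21 after quantile normalization.

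In primary tumors 36 of 40 members were lower with estrogen than after withdrawal as deposited, and 21 of 40 after quantile normalization, 15 genes having changed sign. Of all 17170 genes 9602 and 7848 were lower. The median difference was −1.02 as deposited, beside −0.10 over all genes and −0.68 over the 9270 genes with mean signals in the members' range (3.99 to 11.33). Of those 9270 genes 6551 were lower as deposited. After quantile normalization the median was −0.15, beside 0.06 over all genes. Of the 40, 2 fell at an adjusted p below 0.05 as deposited, where 6.94% of all genes fell, and 0 changed after quantile normalization, where 1.34% of all genes changed. They were ZWINT, a kinetochore protein of the spindle checkpoint, and RACGAP1, a subunit of centralspindlin, the complex that organizes the central spindle. The arrays did not overlap for 25 members, each lower with estrogen, and 38.3% of all genes were lower without overlap, as can happen often with 2 arrays a group. In the members' signal range 5142 of the 9270 genes were lower without overlap. After quantile normalization 8 members were lower without overlap, beside 26.8% of all genes, and 3 were higher, beside 31.1%.

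ZWINT gave 9.19 and 10.19 with the pellet (mice 11 and 14) and 12.11 and 11.25 after its removal (mice 10 and 19). In lymph nodes it gave 11.90, 11.16 and 11.92 with the pellet (mice 6, 11 and 14) and 11.67, 12.10 and 11.84 after its removal (mice 9, 10 and 19). Both estrogen-treated primary tumors thus lay below the other 8 arrays. The difference in primary tumors was −2.00 ± 0.44 (adjusted p = 0.0322, range over alternatives 0.0097 to 0.749), and −0.22 ± 0.35 after quantile normalization. RACGAP1 gave 7.78 and 8.46 with the pellet (mice 11 and 14) and 10.08 and 9.53 after its removal (mice 10 and 19), a difference of −1.69 ± 0.43 (adjusted p = 0.0485, range over alternatives 0.0122 to 0.547), and −0.36 ± 0.32 after quantile normalization. Its lymph node signals were 10.41, 9.61 and 10.61 with the pellet (mice 6, 11 and 14) and 10.07, 10.33 and 9.59 after its removal (mice 9, 10 and 19). Here too the 2 estrogen-treated primary tumors were the lowest of the 10 arrays.

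The counts in primary tumors moved with single arrays. Without the lymph node of mouse 11, 9 members were called lower, among 20.4% of all genes called in either direction. This array enters mainly through the shared spread, and the members' median was −1.01 without it. No member was called when the lymph node of mouse 6, 9 or 10 was left out, nor without the primary tumor of mouse 11, 10 or 19, fits that called 0.029% to 5.62% of all genes, and only ZWINT was called without the primary tumor of mouse 14 (3.17%). Leaving out the withdrawn primary tumor of mouse 10 gave a members' median of −0.60, and leaving out that of mouse 19 gave −1.65. In a fit of the 4 primary tumors alone 11 members were called lower, among 21.5% of all genes called. CDC20, CDC25C and PLK1 had positive differences on both scales, at 0.56 ± 0.68, 0.39 ± 0.46 and 0.27 ± 0.30 as deposited, and none passed the test. BIRC5 (survivin), the subunit that brings Aurora B to chromosomes, had 0.27 ± 0.62 as deposited and 1.41 ± 0.53 after quantile normalization, and passed the test on neither scale.

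The estrogen difference in lymph nodes minus that in primary tumors was positive for 36 members as deposited and for 25 after quantile normalization. So it was for 59.8% and 48.4% of all genes, and for 73.4% and 49% of genes in the members' signal range. The median of this difference over the members was 1.13 (all genes 0.15, genes in the same signal range 0.57). After quantile normalization it was 0.23 (all genes −0.02, same signal range −0.02). No member was called on either scale, where 0.0116% and 0.00582% of all genes were, and 5 and 0 members had an unadjusted p below 0.05 in limma's test, as did 10.8% and 6.34% of all genes. Without the lymph node of mouse 11, 4 members (CDK1, MAD2L1, PTTG1 and RACGAP1) were called higher as deposited, among 7.75% of all genes called. Averaged over both sites, estrogen minus withdrawal had a median of −0.53 as deposited and −0.04 after quantile normalization. All genes had −0.04 and 0.05, and genes in the members' signal range −0.40 and 0.02. ZWINT fell by 1.11 in this average as deposited (adjusted p = 0.0479, range over alternatives 0.0348 to 0.656), the 1 member to do so, where 7.04% of all genes fell; after quantile normalization 0 members and 3.72% of all genes changed. The averaged count was 0 when any 1 of 8 arrays was left out, where 0.227% to 9.47% of all genes were called. It was 1 without the lymph node of mouse 11 (11.5% of all genes), and 3 (CDK1, ECT2 and ZWINT, each lower) without that of mouse 14 (17.1%). After quantile normalization and without the lymph node of mouse 14 it was 2, CDC20 higher and ECT2 lower, among 12.7% of all genes called.

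Lymph node against primary tumor with estrogen asks whether metastases held more of these transcripts than primary tumors. As deposited the difference was positive for all 40 members, and for 32 after quantile normalization. It was positive for 67.6% and 52.4% of all genes. In the members' signal range 84.6% and 54.5% of genes were positive. The median was 1.57, beside 0.26 over all genes and 0.75 over genes in the same signal range, and 0.68 after quantile normalization, beside 0.02. As deposited 9 members rose at an adjusted p below 0.05 in limma's test. So did 7.81% of all genes, and 1081 of the 9270 genes in the same signal range. After quantile normalization 0 members and 0.46% of all genes changed. The 9 were CCNB1, CCNB2, ZWINT, NUSAP1, SPAG5, RACGAP1, CDC20, UBE2C and PTTG1. The lymph nodes lay above the primary tumors without overlap for 20 members (28% of all genes), and for 10 after quantile normalization (13.6%). Of the 9270 genes in the same signal range, 3759 and 1326 did so. With mouse as a fixed replicate block, which compares the sites within the 4 mice that gave both and leaves 2 residual degrees of freedom, 0 members and 0 of all genes were called and the members' median was 1.37.

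These calls rested on few arrays. Without the lymph node of mouse 6, or without the primary tumor of mouse 11, 0 members were called, and 2.32% and 0.087% of all genes. Without the lymph node of mouse 11 there were 27, among 21.4% of all genes called. Of the 9 genes, 3 were called without the primary tumor of mouse 14 (CCNB1, RACGAP1 and ZWINT), 4 without the lymph node of mouse 10, and 5 without that of mouse 9 or of mouse 14, in fits that called 4.29% to 8.58% of all genes. After quantile normalization 1 member, NDC80, was called when the lymph node of mouse 11 was left out, among 2.22% of all genes.

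Among the genes of mitotic entry, 2 of 5 rose in the lymph node with estrogen as deposited. CCNB1, cyclin B1, gave 11.54, 10.70 and 11.95 in estrogen-treated lymph nodes (mice 6, 11 and 14) and 10.62, 11.24 and 11.01 in withdrawn ones (mice 9, 10 and 19). In primary tumors it gave 8.40 and 9.37 with the pellet (mice 11 and 14) and 9.63 and 10.15 after its removal (mice 10 and 19). All 6 lymph node arrays thus lay above all 4 primary tumors, which held as deposited for 2 members, CCNB1 and CDC20, and for 5.86% of all genes. The difference with estrogen was 2.51 ± 0.44, or 5.71-fold (adjusted p = 0.0128, range over alternatives 0.0037 to 0.838), and 0.91 ± 0.39 after quantile normalization. With the fixed replicate block it was 2.44 (adjusted p = 0.149). Its other probe set had the same sign in each of the 4 comparisons of 2 groups.

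CCNB2, cyclin B2, gave 10.44, 10.32 and 10.56 in estrogen-treated lymph nodes (mice 6, 11 and 14) and 9.67, 10.37 and 10.27 in withdrawn ones (mice 9, 10 and 19). The primary tumors gave 7.99 and 8.64 with the pellet (mice 11 and 14), and 9.98 and 8.27 after its removal (mice 10 and 19). The estrogen-treated primary tumors lay below every lymph node, whereas the withdrawn primary tumor of mouse 10 lay within the lymph node range. The difference with estrogen was 2.12 ± 0.48 (adjusted p = 0.0304, range over alternatives 0.0135 to 0.925), and 0.73 ± 0.46 after quantile normalization. CDK1, the kinase that both cyclins activate, gave 10.97, 9.33 and 11.41 (E) and 10.90, 11.10 and 10.75 (EWD) at the lymph node site, against 8.87 and 9.12 (E) and 11.46 and 10.46 (EWD) at the primary site, in the same order of mice, which is kept below. Its difference with estrogen was 1.58 ± 0.58 as deposited and −0.05 ± 0.45 after quantile normalization, and it did not pass the test on either scale. CDC25C, the phosphatase that activates CDK1, gave 5.59, 4.61 and 5.49 (E) and 5.34, 5.79 and 5.63 (EWD) at the lymph node site, against 4.74 and 4.36 (E) and 4.77 and 3.52 (EWD) at the primary site. It separated the sites after withdrawal, where its difference was 1.44 ± 0.43 (adjusted p = 0.319) as deposited and 1.21 ± 0.41 after quantile normalization, and overlapped with estrogen.

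In the full fit with the probe sets used, none of the 5 mitotic kinase genes passed the test in any of the 7 comparisons. This held on both scales, and the Aurora B partner BIRC5 is counted among the 5. AURKA, Aurora A, which matures the spindle poles, gave 9.73, 7.43 and 10.44 with the pellet (mice 6, 11 and 14) and 9.81, 9.66 and 9.02 after its removal (mice 9, 10 and 19) in lymph nodes. Primary tumor arrays read 8.12 and 8.22 with the pellet (mice 11 and 14) and 10.87 and 9.37 after its removal (mice 10 and 19). Its highest signal was thus in a withdrawn primary tumor and its lowest in an estrogen-treated lymph node, and lymph node minus primary tumor was 1.04 ± 0.82 with estrogen and −0.61 ± 0.82 after withdrawal. After quantile normalization these were −0.24 ± 0.65 and −0.60 ± 0.65, so that the sign with estrogen turned. As deposited, AURKA was called lower with estrogen in the fit of primary tumors alone. It was also called so without the lymph node of mouse 11, a fit that called it higher in the lymph node with estrogen. PLK1, polo-like kinase 1, was the member with the smallest spread: its 10 signals lay between 4.92 and 6.04, with 5.93, 5.46 and 5.51 (E) and 5.56, 6.04 and 5.57 (EWD) at the lymph node site, against 5.25 and 5.61 (E) and 5.39 and 4.92 (EWD) at the primary site. BIRC5 gave 8.63, 7.39 and 9.03 (E) and 7.87, 8.24 and 8.27 (EWD) at the lymph node site, against 7.90 and 7.66 (E) and 8.34 and 6.66 (EWD) at the primary site. With this probe set its sites overlapped in both pellet states. In each of its other probe sets the lymph nodes lay above the primary tumors without overlap in both states. Their site differences as deposited were 1.22, 0.80 and 0.80 with estrogen and 1.32, 1.10 and 0.83 after withdrawal. With the mean over probe sets, BIRC5 was called higher in the lymph node averaged over pellet states, among 5.17% of all genes.

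Of the 5 checkpoint genes ZWINT rose in the lymph node with estrogen, by 1.98 ± 0.41 as deposited (adjusted p = 0.0217, range over alternatives 0.0067 to 0.992), and the difference was 0.23 ± 0.32 after quantile normalization. MAD2L1, the MAD2 protein that holds CDC20 inactive, gave 8.95, 6.34 and 9.72 (E) and 8.50, 8.83 and 7.58 (EWD) at the lymph node site, against 6.65 and 6.93 (E) and 9.00 and 8.69 (EWD) at the primary site. Its differences of 1.56 ± 0.87 with estrogen and −0.54 ± 0.87 after withdrawal (0.70 ± 0.69 and −0.56 ± 0.69 after quantile normalization) did not pass the test. BUB1, BUB1B and TTK had site differences with estrogen that did not pass it either, and the differences of the 5 genes lay between 1.19 and 1.98 as deposited and between 0.23 and 1.72 after quantile normalization.

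The 5 kinetochore genes had no call in any comparison of the full fit as deposited. Without the lymph node of mouse 11, NDC80, NUF2 and CENPF were called higher in the lymph node with estrogen. NDC80 and NUF2 were called lower with estrogen in the fit of primary tumors alone. CENPA, the histone H3 variant that marks centromeres, gave 7.92, 5.65 and 8.90 (E) and 8.54, 8.50 and 6.36 (EWD) at the lymph node site, against 6.18 and 5.41 (E) and 8.76 and 6.86 (EWD) at the primary site. Its standard errors were the widest of the 40 in each of the 7 comparisons. CENPE, the kinetochore motor, gave 5.63, 3.00 and 6.56 (E) and 5.69, 5.69 and 5.33 (EWD) at the lymph node site, against 5.12 and 4.35 (E) and 6.47 and 4.74 (EWD) at the primary site. Its lowest signal, in the lymph node of mouse 11, was close to the median of that array, 2.78. The cytokinesis gene KIF23 lay below that median on the same array, at 2.53. NUF2 gave 2.62 in the estrogen-treated primary tumor of mouse 14, below that array's median of 2.83.

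Of the 9 spindle genes 2 rose in the lymph node with estrogen as deposited. NUSAP1, which bundles spindle microtubules, gave 10.57, 9.82 and 10.86 (E) and 10.14, 10.54 and 10.62 (EWD) at the lymph node site, against 8.45 and 8.70 (E) and 10.38 and 9.38 (EWD) at the primary site. Its difference with estrogen was 1.84 ± 0.39 (adjusted p = 0.0249, range over alternatives 0.0054 to 0.983), and 0.31 ± 0.33 after quantile normalization. SPAG5 (astrin), which stabilizes kinetochore attachments, gave 8.65, 7.43 and 8.24 (E) and 7.74, 8.20 and 7.16 (EWD) at the lymph node site, against 6.22 and 5.92 (E) and 7.35 and 6.03 (EWD) at the primary site. Its difference was 2.05 ± 0.51 (adjusted p = 0.0417, range over alternatives 0.0112 to 0.771). After quantile normalization SPAG5 was the 1 member with all 6 lymph nodes above all 4 primary tumors, against 1.91% of all genes, with a difference of 1.32 ± 0.41 with estrogen (adjusted p = 0.241). KIF2C, a kinesin that removes tubulin from microtubule ends, gave 8.27, 6.47 and 8.77 (E) and 7.98, 8.14 and 7.44 (EWD) at the lymph node site, against 7.33 and 6.86 (E) and 8.67 and 7.71 (EWD) at the primary site, with overlap in both pellet states.

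Among the 6 cytokinesis genes RACGAP1 rose, by 2.10 ± 0.40 (adjusted p = 0.0157, range over alternatives 0.0041 to 0.864), and the difference was 0.78 ± 0.30 after quantile normalization. PRC1, which crosslinks the central spindle, gave 11.34, 10.51 and 11.52 (E) and 11.42, 11.67 and 11.12 (EWD) at the lymph node site, against 8.94 and 9.42 (E) and 11.52 and 9.81 (EWD) at the primary site. Its difference with estrogen was 1.95 ± 0.52 (adjusted p = 0.0522) as deposited and 0.22 ± 0.44 (adjusted p = 0.897) after quantile normalization. ECT2 gave 8.49, 6.56 and 9.62 (E) and 9.40, 9.18 and 8.20 (EWD) at the lymph node site, against 6.44 and 6.41 (E) and 8.97 and 8.23 (EWD) at the primary site. Its difference with estrogen, 1.80 ± 0.79 as deposited and 1.01 ± 0.61 after quantile normalization, did not pass the test.

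All 3 exit genes rose in the lymph node with estrogen as deposited, but none of these calls was firm. UBE2C and PTTG1 were not called when the lymph node of mouse 6, 9, 10 or 14 was left out. PTTG1 was also not called without that of mouse 19, and CDC20 was not called without that of mouse 6, 9 or 10. CDC20 gave 11.56, 11.65 and 10.12 with the pellet (mice 6, 11 and 14) and 9.83, 10.77 and 9.92 after its removal (mice 9, 10 and 19) in lymph nodes. The primary arrays gave 8.37 and 8.62 with the pellet (mice 11 and 14), and 8.82 and 7.02 after its removal (mice 10 and 19). Every lymph node lay above every primary tumor, and the lowest array, the withdrawn primary tumor of mouse 19, was the one with the widest GAPDH 3′ minus 5′ difference. The site difference was 2.63 ± 0.63 with estrogen, or 6.17-fold (adjusted p = 0.0379, range over alternatives 0.0184 to 0.925), and 2.25 ± 0.63 after withdrawal (adjusted p = 0.292). After quantile normalization these were 1.06 ± 0.63 and 2.08 ± 0.63, and the estrogen-treated groups overlapped.

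UBE2C, the ubiquitin-conjugating enzyme of the anaphase-promoting complex, gave 10.68, 9.18 and 9.88 (E) and 10.14, 10.58 and 9.33 (EWD) at the lymph node site, against 7.57 and 8.20 (E) and 9.99 and 9.38 (EWD) at the primary site. Its difference with estrogen was 2.05 ± 0.52 (adjusted p = 0.0444, range over alternatives 0.01 to 0.925), and 0.84 ± 0.42 after quantile normalization. PTTG1 gave 10.98, 9.52 and 11.27 (E) and 10.01, 10.30 and 9.72 (EWD) at the lymph node site, against 8.08 and 8.96 (E) and 9.62 and 9.46 (EWD) at the primary site. Its difference was 2.08 ± 0.52 (adjusted p = 0.0427, range over alternatives 0.0036 to 0.922), and 0.68 ± 0.41 after quantile normalization. In both genes the estrogen-treated primary tumors lay below the other 8 arrays as deposited. Of the chromosome genes, MKI67 and TOP2A, the topoisomerase that untangles sister chromatids, neither passed the test. The MKI67 probe set used had a site difference with estrogen of 0.86 ± 0.64 as deposited, with overlap. Its other probe sets gave 2.43, 1.70 and 1.05, each without overlap.

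**Figure D4:**
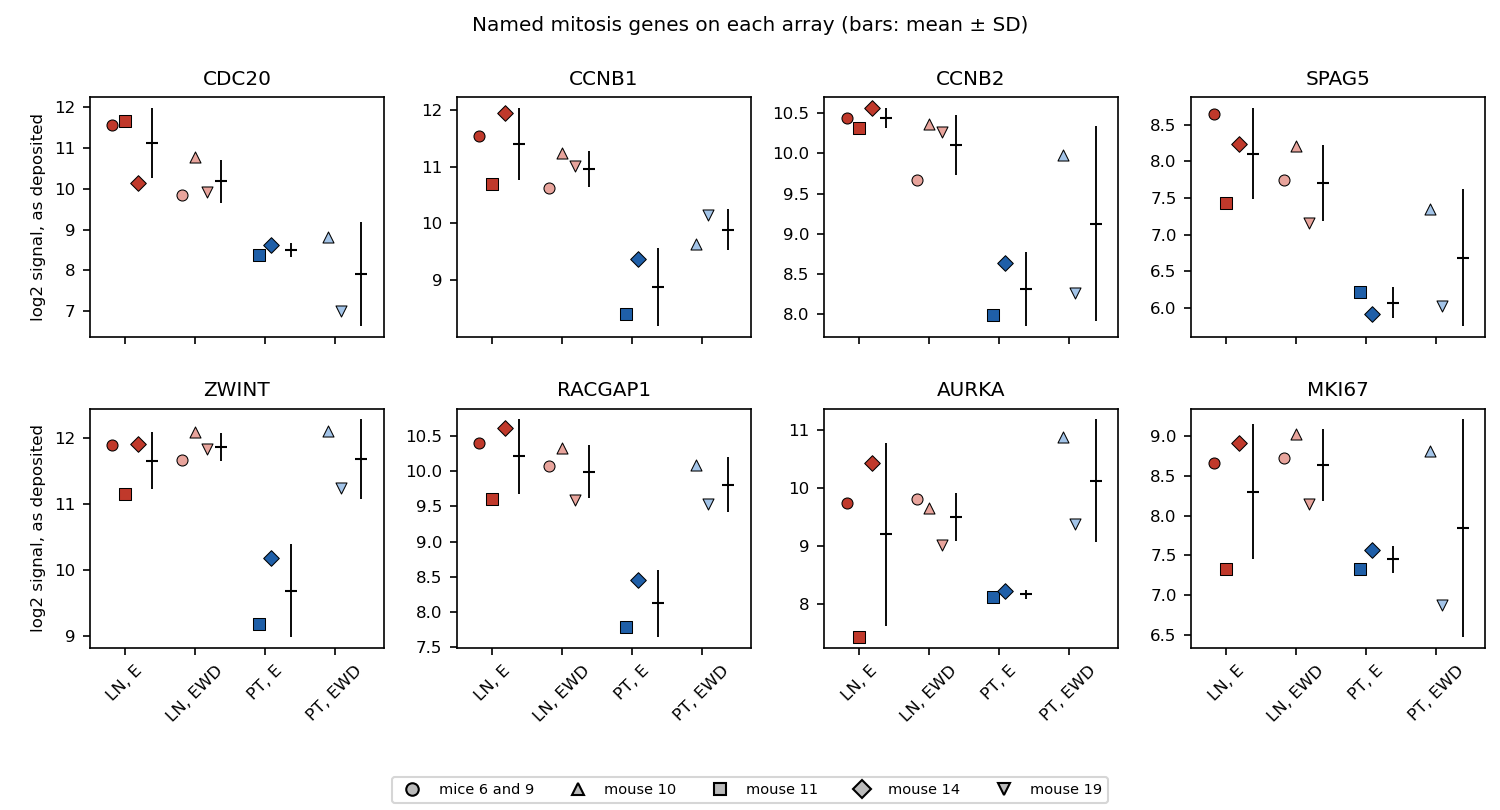
Deposited log2 signal (y axis, a separate range for each gene) of 8 of the mitosis genes on each array, by site and pellet state; symbols mark mice, and the bars beside each group give its mean ± SD (3 arrays a group in lymph nodes, 2 in primary tumors). CDC20 and CCNB1 separate all 6 lymph nodes from all 4 primary tumors, while AURKA and MKI67 overlap in the probe sets shown. Another MKI67 probe set, not shown, had all lymph nodes at 6.03 or more and all primary tumors at 5.86 or less.

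After withdrawal no member was called between the sites on either scale, as was 0% of all genes as deposited and 0% after quantile normalization, and 3 members had an unadjusted p below 0.05 in limma's test on each scale, as did 10% and 8.39% of all genes. The difference was positive for 33 members as deposited (56.6% of all genes) and 32 after quantile normalization (51.4%). The median was 0.51 (all genes 0.07) and 0.38 (all genes 0.01). It was 0.93 without the primary tumor of mouse 10 and −0.11 without that of mouse 19. The lymph nodes lay above the primary tumors without overlap for 6 members as deposited (20.8% of all genes) and 6 after quantile normalization (17.7%). AURKA, MAD2L1 and KIF2C were at the lower end with −0.61, −0.54 and −0.33 as deposited (−0.60, −0.56 and −0.38 after quantile normalization).

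Averaged over pellet states, lymph node minus primary tumor was positive for 40 members as deposited and 35 after quantile normalization, with medians of 0.99 and 0.49. All genes had medians of 0.16 and 0.01, with 65.5% and 51.3% positive. Genes in the members' signal range had 0.43 and 0.04, with 78.4% and 53.1% positive. As deposited 6 members rose, where 7.51% of all genes rose, and 1108 of the 9270 genes in the members' signal range did so. After quantile normalization 0 members changed, where 0.344% of all genes changed, and with the fixed replicate block 0 members were called. The 6 were CCNB1 (1.79 ± 0.31, adjusted p = 0.0157, range over alternatives 0.0065 to 0.525), CDC20 (2.44 ± 0.45, adjusted p = 0.0175, range over alternatives 0.0079 to 0.537), CCNB2, SPAG5, NUSAP1 and RACGAP1. After quantile normalization CCNB1 had 0.94 ± 0.28, CDC20 had 1.57 ± 0.44, and the other 4 had 0.40 to 1.11. The averaged count was 21 without the lymph node of mouse 11, among 17.5% of all genes called. It was 0 without the lymph node of mouse 10 or the primary tumor of mouse 11 (2.04% and 0.955% of all genes), 1 with the lymph node of mouse 6 left out or the primary tumor of mouse 14 or 19 (2.91%, 4.39% and 2.99%), and 2 without the lymph node of mouse 9 (3.47%). After quantile normalization 1 member, CDC20, was called without the lymph node of mouse 14, among 1.81% of all genes.

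The 4 mice with both sites show how uneven the site difference was. Lymph node minus primary tumor had a median over the 40 genes of 0.234, 0.102, 2.25 and 0.362 (mice 10, 11, 14 and 19), where all genes had 0.104, 0.124, 0.229 and 0.049. The lymph node was higher for 29, 23, 39 and 26 members in these mice, and for 58.1%, 57.8%, 60.9% and 53.4% of all genes. Mouse 14, whose lymph node held the highest and whose primary tumor held among the lowest signals, stood apart from the other 3. After quantile normalization the medians were 0.132, −0.192, 0.969 and 0.504, where all genes had 0.026, −0.007, −0.004 and 0.055. As deposited 13 members were higher in the lymph node of all 4 mice, beside 16.6% of all genes, and 7 after quantile normalization, beside 9.11%.

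Single genes differed among these mice. CDC20 was higher in the lymph node by 1.95, 3.28, 1.51 and 2.89 in mice 10, 11, 14 and 19. CCNB1 was higher by 1.61, 2.30, 2.58 and 0.86 in the same order. Both were thus higher in the lymph node of every mouse as deposited, and after quantile normalization CCNB1 kept that sign in 4 mice (1.47, 0.81, 0.97 and 0.88) and CDC20 in 3 (1.77, 1.72, −0.01 and 2.86). AURKA gave −1.21, −0.68, 2.21 and −0.35, so its lymph node signal was lower in 3 of the 4 mice on the deposited scale.

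**Figure D5:**
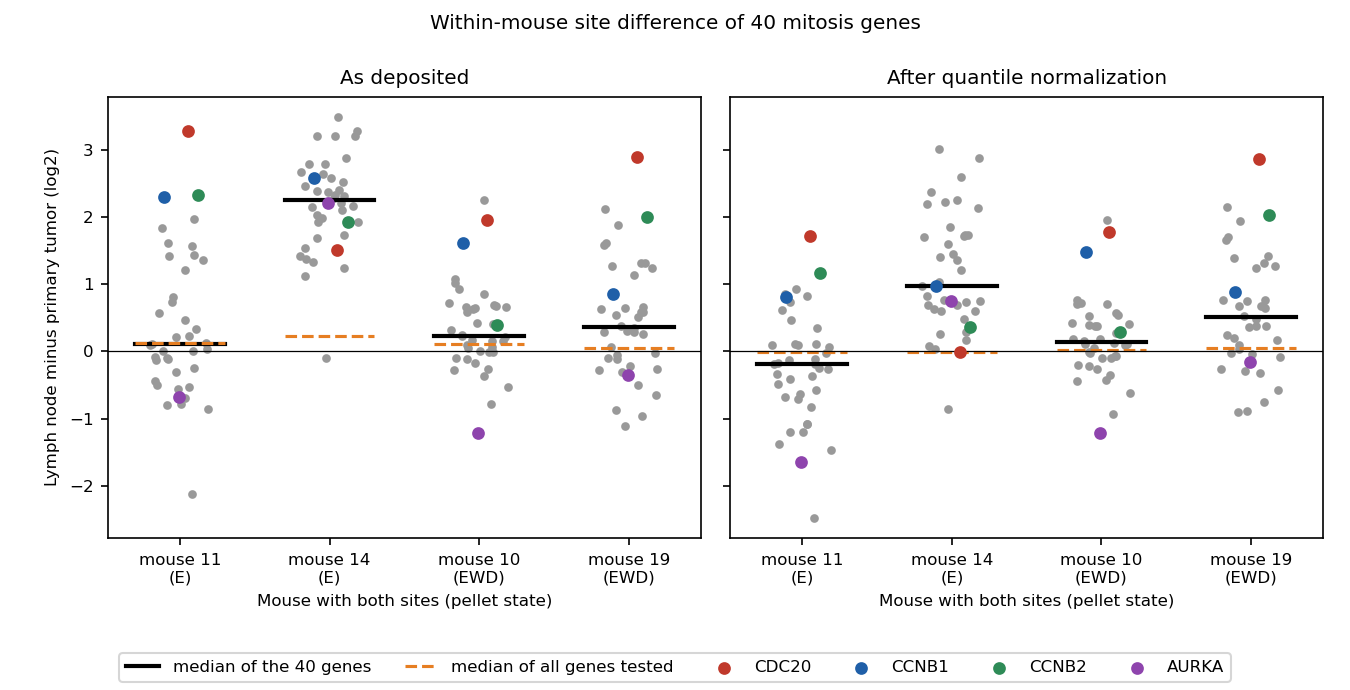
Lymph node minus primary tumor signal (log2, y axis) of the 40 mitosis genes in each of the 4 mice with both sites (x axis), as deposited and after quantile normalization; points are genes, with 4 coloured, the solid line is their median and the dashed line the median of all 17170 genes. As deposited the medians are 0.102 and 2.25 in the estrogen-treated mice 11 and 14, and 0.234 and 0.362 in the withdrawn mice 10 and 19.

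A further list of 115 mitosis genes, regulators and subunits not among the 40, was read from the same fit, and 111 of them were tested. In lymph nodes 0 were called between estrogen and withdrawal in limma's test (2 at an unadjusted p below 0.05), with a median of −0.02. In primary tumors 2 of the 111 rose with estrogen (E2F2 and CENPN), where 0.879% of all genes rose, and 9 fell, a share near the 6.94% of all genes (CDC25B, BUB3, SKA2, SMC4, PDS5A, WAPL, NUMA1, ANAPC11 and CDC16), with a median of −0.60. Between sites with estrogen 11 rose in the lymph node, where 7.81% of all genes rose (CDC25B, CKS2, SKA2, CENPM, MIS18A, SMC4, NCAPD3, TACC3, TUBG1, ANAPC11 and CDC16) and 1 fell (CENPN), where 0.949% of all genes fell, with a median of 1.07. After withdrawal 0 were called between sites (11 at an unadjusted p below 0.05, beside 10% of all genes), with a median of 0.27. Genes in the members' signal range had deposited medians of −0.68 in primary tumors, 0.75 between sites with estrogen and 0.14 after withdrawal. The further list's medians in these comparisons were −0.18, 0.44 and 0.16 after quantile normalization, beside 0.03, 0.08 and 0.02 in that range. After quantile normalization CENPN, a centromere protein, was the 1 gene of this list called in primary tumors (4.08 ± 0.54, adjusted p = 0.0202) and between sites with estrogen (−4.74 ± 0.51, adjusted p = 0.00535), and 2 of its 6 probe sets had that sign in each comparison. FOXM1, the transcription factor that drives many mitosis genes, had 0.02 ± 0.43 between estrogen and withdrawal in lymph nodes and did not pass the test.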

How the data were processed

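The submitters' processing notes name Partek and RMA, a method that adjusts for background, puts arrays on a common scale and combines the probes of a set; versions are not given in the sources used here. The deposited values are the authors' log2 signals of 61359 probe sets on each of 10 arrays, and per the labels' protocols the RNA was amplified by PCR, which can add noise to small captured samples and favor 3′ ends. Arrays give no counts or depth, and their number limits the precision.

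Of the probe sets, 44532 had exactly 1 gene symbol in the platform's annotation table, which can be old, and 1492 had several. For each of 19556 genes the probe set of highest mean was taken, and genes below the 25th percentile of probe set means (log2 2.311) were left out, which left 17170. Signals of different probe sets are not comparable as amounts.

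limma 3.58.1 in R 4.3.3 (lmFit, eBayes) was fitted to all 10 arrays with 1 mean per group and mouse as a random block (duplicateCorrelation, consensus correlation −0.0415). Adjusted p-values are Benjamini-Hochberg values over the 17170 genes, and a gene was called below 0.05. The 7 comparisons were estrogen against withdrawal at each site, their difference, lymph node against primary tumor in each pellet state, and the 2 averages. Group values are means ± SD, and differences carry the SE of the fit. Mouse numbers pair arrays of the same animal; the deviations of its 2 arrays from their group means correlated at 0.176, −0.208, −0.21 and 0.0831 in mice 10, 11, 14 and 19.

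The alternatives were quantile normalization, subtraction of array medians, other filters, no block or a fixed block, the mean over probe sets, an intensity trend, only the groups compared, and leaving out each array; a fixed block with quantile normalization and leaving out arrays after quantile normalization were added after seeing the data. Ranges over alternatives leave out the last of these. Fits that left out an array kept the correlation of the full fit. The members, roles, further mitosis genes and marker lists were chosen with earlier results of these data known. Members were given array by array if called in any comparison, among the 3 highest or 3 lowest moderated t of a 2-group comparison, or highest in their role, which gave 21; of the further mitosis genes those called in a 2-group comparison were named, and FOXM1 and the genes of likeness or of left-out arrays were named after their values were seen. The fit was tested on simulated data.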

Additional observations from a re-analysis of the deposited data

How the results depend on the processing

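With few arrays and 1 scale per array set by the authors, the counts of called members moved with the processing. Quantile normalization left 0 members called in each of the 7 comparisons, in place of 2 (estrogen in primary tumors), 9 (site with estrogen), 1 (averaged estrogen) and 6 (averaged site); the cause was not tested. The fixed replicate block, with or without quantile normalization, also gave 0 for both site counts, over 8 arrays, and with quantile normalization moved the median site difference with estrogen from 1.57 to 0.51 and that of the difference of responses from 1.13 to 0.10. Without a replicate block the averaged estrogen count was 0 and the site counts were 11 with estrogen and 8 averaged. The primary tumor estrogen count was 1 under the intensity trend, the mean over probe sets and no filter, and 11 with only the groups compared, where the site count with estrogen was 0. The mean over probe sets gave 4 in the site comparison with estrogen and 0 in the averaged estrogen comparison, as did no filter in the latter. Leaving out each array gave 0 to 9 members for estrogen in primary tumors, 0 to 4 for the difference of responses, 0 to 27 for the site with estrogen, 0 to 3 for averaged estrogen and 0 to 21 for the averaged site. After quantile normalization these ranges were 0 to 1 for the site with estrogen, 0 to 2 for averaged estrogen and 0 to 1 for the averaged site. In lymph nodes the estrogen count was 0 under every alternative run. Of 18 called values of members, 2 changed sign under any alternative, both for ZWINT after quantile normalization without the withdrawn primary tumor of mouse 10: its estrogen difference went from −2.00 to 0.21 in primary tumors and from −1.11 to 0.04 in the average. The fixed block could not be fitted for estrogen comparisons, nor could the averages and the difference of responses with only the groups compared.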

Other observations

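Probe sets of 1 gene did not always give the same direction. In lymph nodes, estrogen minus withdrawal was −0.33 for the MKI67 probe set used here and 0.77, 0.62 and 0.12 for its other 3, while the 4 BIRC5 probe sets gave 0.22, 0.80, 0.54 and 0.49. The 4 CCNB2 probe sets not used had means of 2.01 to 2.49 over the 10 arrays, below the lowest array median of 2.70, beside 9.65 for the one used.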
